A study of Homo sapiens with 3 samples.

Results

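MYC occupancy was examined at 38 genes of the lysosome, the proton pump that acidifies it, and autophagy, out of 19974 protein-coding genes on chromosomes 1 to 22 and X. The genes, called members here, were chosen by name and not by their MYC signal, but with earlier results of these data known. They comprise 3 transcription factors, 5 lysosomal membrane and lipid transfer proteins, 8 hydrolases, 10 subunits of the V-ATPase and 12 autophagy genes. The cells were parental U2OS, a human osteosarcoma line, and the assay was ChIP-Rx, in which chromatin of mouse NIH3T3 fibroblasts is added to each immunoprecipitation as an internal standard. An anti-MYC antibody was used for 2 immunoprecipitated (IP) libraries, and 1 input library of the same untreated cells served as control, so no state of MYC is contrasted with another. All values come from 1 list of 9818 peaks that the authors deposited on hg38, so they carry no replicate error, their depth is unknown, and no test over samples was possible. Genes and peaks of 1 list are not replicates, and shares are given beside the same share over all protein-coding genes. Occupancy was measured in 1 cell line, and transcript levels were not.

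Lysosomes degrade material delivered by endocytosis and by autophagy, and they need the V-ATPase to pump protons into their lumen. Many of their genes carry a CLEAR element in the promoter, a palindrome of CACGTG with GT before it and AC after it, recognised by the basic helix-loop-helix leucine zipper factors TFEB, TFE3 and MITF. Its core is the canonical E-box, which is also the preferred site of MYC with its partner MAX. Both families of factors can therefore meet at the same letters.

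The promoters on which the comparison of E-boxes turns are shown first, 5′ to 3′ on the strand of the gene, from 250 bases before the RefSeq start to 50 bases from it on (GRCh38.p14). Capitals mark CACGTG, which reads the same on both strands. LAMP1, ATP6V0D1 and ATP6V0B are the members with CACGTG and the highest −log10 q-values of a MYC peak at the start, and GAA holds complete CLEAR palindromes.
LAMP1 (chr13:113296989-113297288, plus strand): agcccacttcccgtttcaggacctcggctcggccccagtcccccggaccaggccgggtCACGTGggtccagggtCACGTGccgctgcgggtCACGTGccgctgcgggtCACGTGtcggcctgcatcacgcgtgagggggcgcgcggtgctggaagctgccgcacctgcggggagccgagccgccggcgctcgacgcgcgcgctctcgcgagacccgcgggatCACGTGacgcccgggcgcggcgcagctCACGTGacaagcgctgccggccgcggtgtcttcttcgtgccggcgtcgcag
ATP6V0D1 (chr16:67481108-67481407, minus strand): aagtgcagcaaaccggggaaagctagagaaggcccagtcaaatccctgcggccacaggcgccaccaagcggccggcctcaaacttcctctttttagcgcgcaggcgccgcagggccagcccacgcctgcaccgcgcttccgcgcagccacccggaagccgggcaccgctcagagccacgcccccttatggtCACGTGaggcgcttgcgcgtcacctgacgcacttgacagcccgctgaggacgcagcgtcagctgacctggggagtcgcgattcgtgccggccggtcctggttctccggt
ATP6V0B (chr1:43974710-43975009, plus strand): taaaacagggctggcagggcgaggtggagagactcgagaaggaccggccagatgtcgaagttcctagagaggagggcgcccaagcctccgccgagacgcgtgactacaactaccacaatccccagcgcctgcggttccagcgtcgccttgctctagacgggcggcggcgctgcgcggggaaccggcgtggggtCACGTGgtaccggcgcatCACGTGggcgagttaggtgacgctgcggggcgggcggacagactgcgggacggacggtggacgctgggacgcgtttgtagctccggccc
GAA (chr17:80101331-80101630, plus strand): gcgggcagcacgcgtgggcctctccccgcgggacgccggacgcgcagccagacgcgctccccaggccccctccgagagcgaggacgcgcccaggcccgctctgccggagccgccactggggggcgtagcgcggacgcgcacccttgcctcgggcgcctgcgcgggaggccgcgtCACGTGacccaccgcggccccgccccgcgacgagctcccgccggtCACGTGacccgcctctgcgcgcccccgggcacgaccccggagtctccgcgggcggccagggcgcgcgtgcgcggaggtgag
CTSD and MCOLN1 carry CACGTG but had no MYC summit at the start.
CTSD (chr11:1763878-1764177, minus strand): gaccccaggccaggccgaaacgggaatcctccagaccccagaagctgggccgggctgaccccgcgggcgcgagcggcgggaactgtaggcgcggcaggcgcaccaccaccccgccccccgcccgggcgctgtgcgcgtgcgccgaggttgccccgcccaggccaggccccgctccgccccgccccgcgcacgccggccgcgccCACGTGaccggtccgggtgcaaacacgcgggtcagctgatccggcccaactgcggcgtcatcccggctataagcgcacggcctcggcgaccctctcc
MCOLN1 (chr19:7522374-7522673, plus strand): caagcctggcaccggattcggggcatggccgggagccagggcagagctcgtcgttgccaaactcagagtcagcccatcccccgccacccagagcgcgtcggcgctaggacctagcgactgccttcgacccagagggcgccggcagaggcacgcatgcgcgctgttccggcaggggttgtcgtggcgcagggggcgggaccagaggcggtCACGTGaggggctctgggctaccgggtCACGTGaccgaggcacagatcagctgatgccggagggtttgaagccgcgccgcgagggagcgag
ATP6V1D had the highest −log10 q-value of all peaks within 1000 bp of a member's start and holds no CACGTG. Capitals mark its copy of CGCGTG, the other strand of the variant E-box CACGCG.
ATP6V1D (chr14:67359755-67360054, minus strand): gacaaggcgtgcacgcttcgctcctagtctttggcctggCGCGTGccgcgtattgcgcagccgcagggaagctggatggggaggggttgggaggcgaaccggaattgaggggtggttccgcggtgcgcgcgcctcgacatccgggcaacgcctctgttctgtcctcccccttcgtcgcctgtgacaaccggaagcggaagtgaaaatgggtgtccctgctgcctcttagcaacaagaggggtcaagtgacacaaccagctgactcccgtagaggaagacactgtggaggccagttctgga
GAA, MCOLN1 and ATP6V1D were added to the printed set after their values were seen, and NEU1, which also carries CACGTG without a summit, was left out of it because it lies in a long stretch of the list with no summit at all.

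MYC summits lay in or within 5000 bp of 26 of the 38 genes (68.4%), against 47.7% of all protein-coding genes. Of these 26 genes, 22 had 1 peak, 3 had 2 and ATP6V0B had 3, which makes 31 peaks. The occupied genes had peaks of ordinary height. The strongest peak of each, taken by the authors' −log10 q-value, had a median fold enrichment over control of 7.37, with quartiles of 5.88 and 10.2. Over all 9520 protein-coding genes with a summit the median was 8.56, with quartiles of 6.07 and 13.0. Fold enrichment is the authors' linear ratio of immunoprecipitated signal to control at the summit. Of the 26 strongest peaks, 6 exceeded 11.5, the upper quartile of all 9818 peaks, and 14 were below their median of 7.78. The lowest was 3.15 at GABARAPL1 and the highest 22.6, a peak within the window of ATP6V0B.

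Gene starts and strands were listed for 29 of the members. A MYC summit lay within 1000 bp of a listed start in 17 of these 29 (58.6%), against 41.5% of the 15812 protein-coding genes with a listed start. The other 9 members, LAMP2, CTSB, HEXA, ATP6V0E1, ATP6V1A, ATP6V1B2, ATP6V1C1, ATP6V1H and UVRAG, are described by the nearer annotated end. Counting either end for all 38 genes gave 23 (60.5%), against 37.6% of all protein-coding genes. In the stronger 50% of peaks by −log10 q, 11 of the 38 genes had a summit in the window (28.9%, beside 27.7% of all protein-coding genes) and 8 of the 29 had one at a start (27.6%, beside 23.8% of all). Within 10000 bp of the gene 29 members had one, against 50.9% of all protein-coding genes.

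**Figure D1:**
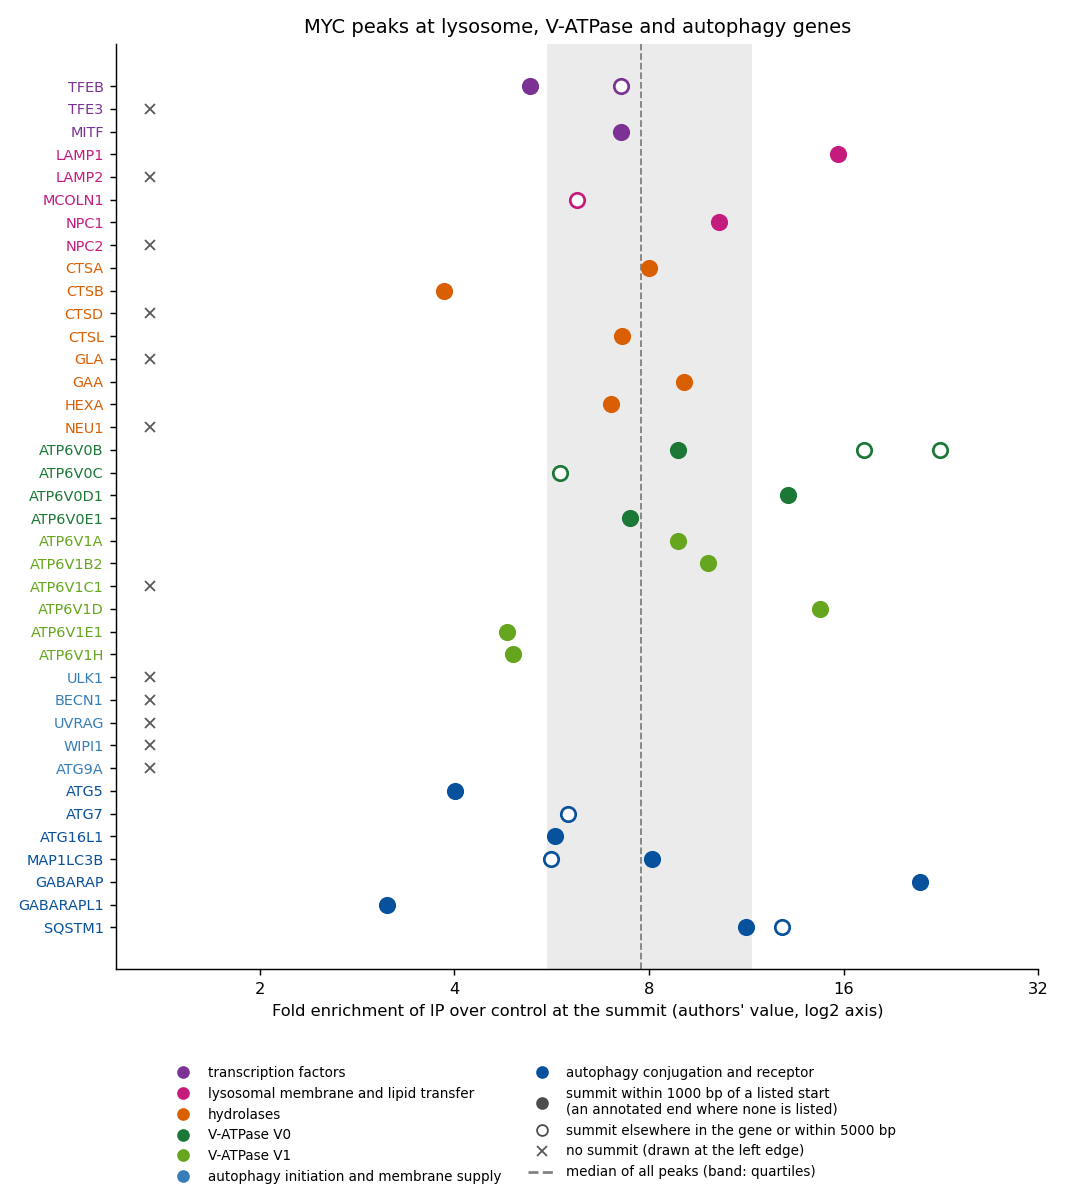
Fold enrichment at the summit of every MYC peak in or within 5000 bp of each member (log2 axis), coloured by role. Filled circles are summits within 1000 bp of a listed start, or of an annotated end where no start is listed. Open circles lie elsewhere, and crosses mark the 12 genes with no summit. The dashed line and grey band are the median of all peaks, 7.78, and their quartiles.

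The peaks of the transcription factor genes all had folds below the median of the list. By −log10 q the MITF peak, at 53.0, was above the list's median of 47.8. TFEB, the best studied activator of lysosomal genes, had 2 peaks. The one 237 bp after a listed start had a fold of 5.24, and a narrower one of 363 bp lay 10764 bp after the most downstream listed start, with a fold of 7.24. MITF, which also directs melanocyte development, had a single peak 103 bp before the most upstream of its listed starts, with a fold of 7.25. TFE3 had no peak, and the summit nearest to it lay 36570 bp away.

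Among the membrane and lipid transfer proteins, LAMP1 had the highest peak. LAMP1, an abundant glycoprotein of the lysosomal membrane, had 1 peak (chr13:113296716-113297445, hg38) with a fold of 15.7, and its −log10 q of 189 ranked 860 of 9818. NPC1, which exports cholesterol from the lysosome, had a fold of 10.3 with its summit 431 bp before the start. Its −log10 q of 33.8 was below the list's median of 47.8. The calcium-permeable channel gene MCOLN1 counted as occupied through a peak 1673 bp beyond the end of the gene, 13058 bp from its start, with a fold of 6.20. Its E-box-bearing start had none. LAMP2, the partner of LAMP1, and NPC2, which hands cholesterol to NPC1, had no peak, with the nearest summits 16604 and 78642 bp away. The paired proteins therefore differed, with a peak at LAMP1 and NPC1 and none at LAMP2 and NPC2.

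Hydrolase members had peaks in 5 of 8 cases (62.5%), against 47.7% of all protein-coding genes. GAA, which breaks down glycogen, had the highest fold, 9.06 with the summit 168 bp before the start (chr17:80101121-80102252) and 800 bp from an end of CCDC40, a gene of cilia. CTSA, a carboxypeptidase that also stabilises other lysosomal enzymes, followed with 8.01. Its summit lay 85 bp before the start of CTSA and 42 bp from an end of NEURL2, another protein-coding gene, with SPATA25 at 234 bp. The cysteine protease gene CTSL had a fold of 7.27 with the summit 260 bp after the start. HEXA, a subunit of the enzyme that degrades GM2 ganglioside, had a fold of 7.0 with the summit 1 bp from an annotated end and 100 bp from an end of the long noncoding RNA gene HEXA-AS1. CTSB, another cysteine protease gene, had a small peak of 3.85 (−log10 q 13.4), 74 bp from an annotated end. The 5 folds spanned 3.85 to 9.06, all within or below the quartiles of the whole list.

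The aspartic protease gene CTSD, the α-galactosidase gene GLA and the sialidase gene NEU1 had no peak. The nearest summits were 63400 bp from CTSD and 6687 bp from GLA. The one by GLA belonged to a peak with a fold of 35.7 at ends of RPL36A, a ribosomal protein gene, and BTK, a kinase gene. For NEU1 the list gives no basis for a statement. It lies on chromosome 6 in a stretch of 5.17 Mb without any summit that spans 173 protein-coding genes, more than any other stretch between adjacent summits. The next held 67. Without NEU1, 26 of 37 members (70.3%) had a summit, against 47.7% of all protein-coding genes. That background share still counts the 173 genes of the stretch.

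V-ATPase members were occupied in 9 of 10 cases (90.0%), against 47.7% of all protein-coding genes, ATP6V1C1 being the exception with its nearest summit 111776 bp away. All 4 genes of the membrane-embedded V0 sector, which conducts protons, had a peak in the window. ATP6V0D1, which joins the V0 sector to the rotor, had the highest V0 peak at a start (chr16:67481089-67481605), with a fold of 13.1 and its summit 163 bp before the start and 74 bp from an end of the long noncoding RNA gene ATP6V0D1-DT. ATP6V0E1, a small membrane subunit, had a fold of 7.47 with the summit 15 bp from an annotated end. The proteolipid genes ATP6V0B and ATP6V0C, whose products form the rotating ring, were less direct cases.

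ATP6V0B had a peak 60 bp before its start, with a fold of 8.87 (chr1:43974531-43975345), whose summit also lay 35 bp from an end of the long noncoding RNA gene LOC124904167. The other 2 peaks in its window were higher and lay by other protein-coding genes. One with a fold of 22.6 lay 4972 bp upstream, 22 bp from an end of DPH2, an enzyme gene of diphthamide synthesis. The other, with a fold of 17.2, lay 4924 bp downstream of the start, 674 bp from an end of B4GALT2, a galactosyltransferase gene. ATP6V0C had no summit near a start. Its peak, with a fold of 5.84, lay 135 bp beyond the downstream end of the gene and 18 bp from an end of AMDHD2, an enzyme gene of amino sugar metabolism.

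The peripheral V1 sector hydrolyses ATP. ATP6V1D, the central rotor subunit, had the strongest evidence of a peak among all members, with a −log10 q of 351 that ranked 295 of 9818 (chr14:67359636-67360828). Its fold was 14.7, and the summit lay 222 bp before its start and 302 bp from an end of EIF2S1, a translation initiation factor gene, so the peak stands between both genes. The nucleotide-binding subunit genes ATP6V1B2 and ATP6V1A had folds of 9.88 and 8.86. The summit at ATP6V1A lay 645 bp from the gene but 141 bp from an end of NAA50, an acetyltransferase gene. ATP6V1H, a regulatory subunit, and ATP6V1E1, of the peripheral stalk, had folds of 4.93 and 4.83, below the lower quartile of all peaks. The summit at ATP6V1E1 lay 16 bp from an end of BCL2L13, a mitochondrial protein gene. With ATP6V0B taken at the peak by its start, the 9 occupied subunit genes of this 1 pump spanned folds of 4.83 to 14.7.

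**Figure D2:**
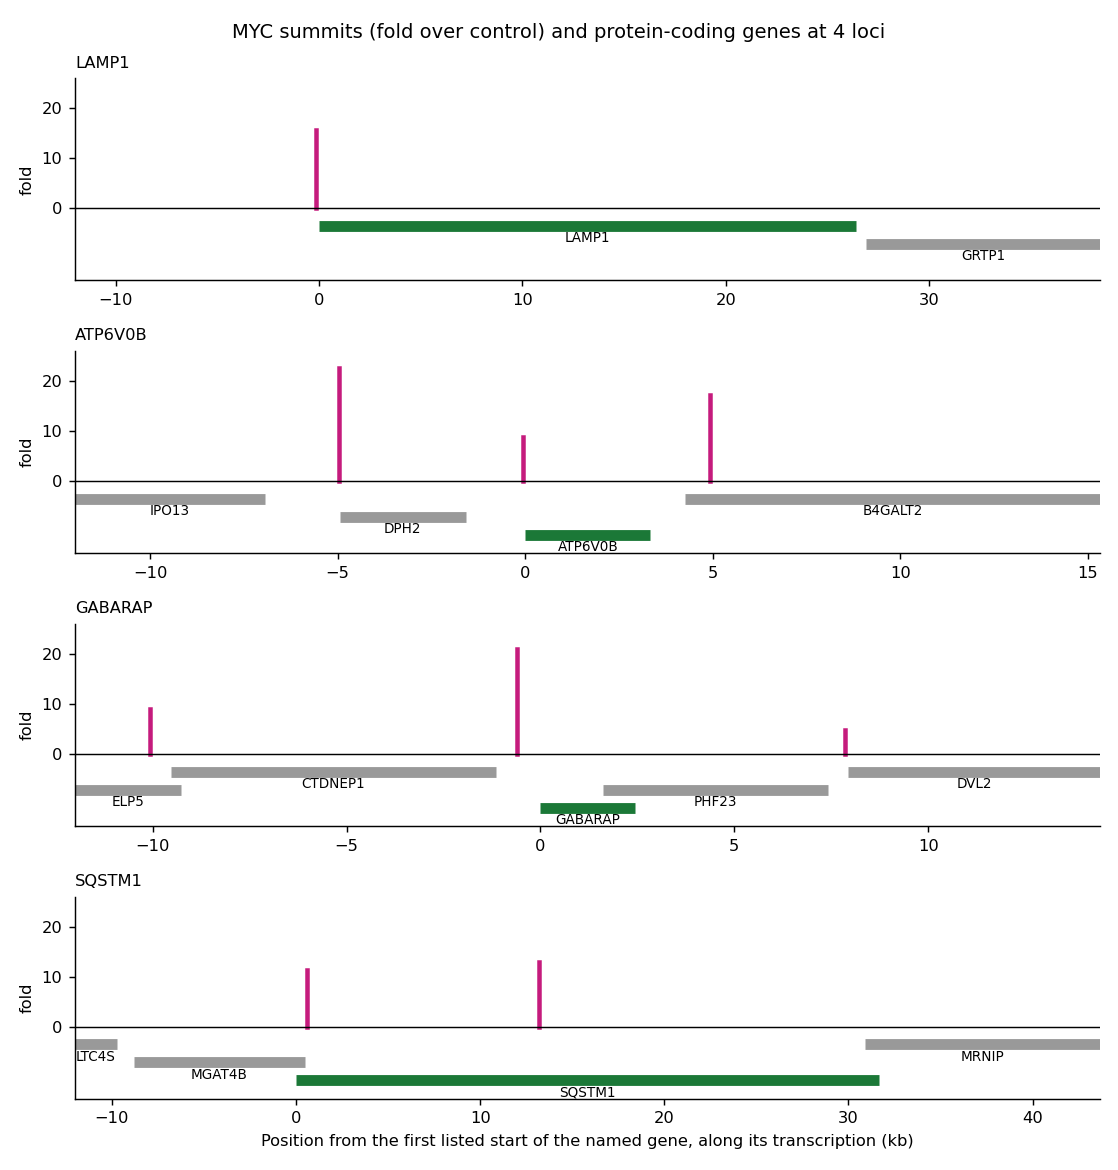
MYC summits (vertical lines, height is the fold over control) and protein-coding genes (horizontal bars; the member in green, others in grey) around LAMP1, ATP6V0B, GABARAP and SQSTM1, by distance from the first listed start along transcription. LAMP1 has 1 summit at its start, the highest summits near ATP6V0B lie by DPH2 and B4GALT2, and SQSTM1 has 1 summit near the start and 1 inside the gene.

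Autophagy members had a summit in 7 of 12 cases (58.3%), against 47.7% of all protein-coding genes. None of the 5 genes that start the process and supply membrane had a summit in the window: the kinase ULK1, BECN1 and UVRAG of the lipid kinase complex, the phosphoinositide-binding WIPI1, and ATG9A, a lipid scramblase of vesicles that seed the membrane. The nearest summits were 6101 bp from ULK1 and 9045 bp from BECN1. Both belonged to high peaks at other genes. These were PUS1, a pseudouridine synthase gene, with a fold of 36.3, and PSME3, a proteasome activator gene, with 52.7. For ATG9A, WIPI1 and UVRAG the nearest lay 15938, 37652 and 46765 bp away.

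All 7 genes of the conjugation systems and their cargo receptor had a summit in the window, against 47.7% of all protein-coding genes. With the stronger 50% of peaks by −log10 q, 2 of them kept one, GABARAP and SQSTM1, against 27.7% of all protein-coding genes. GABARAP, a ubiquitin-like protein coupled to lipid on the growing membrane, had the highest fold, 20.98 (−log10 q 101.3). Its summit lay 608 bp before the start and 534 bp from the end of CTDNEP1, a phosphatase gene. The related MAP1LC3B had a fold of 8.09 with the summit 121 bp before the start and 94 bp from an end of FBXO31, an F-box protein gene. A second peak of 5.64 lay 3081 bp beyond the gene. The third relative, GABARAPL1, had the lowest fold of all members at 3.15. The family of lipid-coupled proteins thus spanned most of the range seen across the members.

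SQSTM1, the receptor that brings ubiquitylated cargo to the membrane, had 2 peaks of similar height. One with a fold of 11.3 and a lower −log10 q of 51.3 lay 10 bp before a listed start. It was 133 bp from an end of the neighbouring MGAT4B, a glycosyltransferase gene. The other, with a fold of 12.9 (−log10 q 121), lay inside the annotated gene, 1339 bp before the most downstream of its listed starts. ATG16L1 and ATG5, which together promote lipid coupling, had low folds of 5.72 and 4.01 with summits 123 and 247 bp before a start. ATG7, the activating enzyme, had no summit near its start, and its peak, with a fold of 6.0, lay 296327 bp into the gene.

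Where the start is listed, the summits sat mostly before it. Of the 17 members with a summit within 1000 bp of a start, 15 had it before the start (88.2%), with a median position 123 bp before and a range from 608 bp before to 260 bp after. Over the 6560 protein-coding genes with such a summit, 58.5% had it before the start, with a median of 31 bp. CTSL and TFEB were the members with the summit after the nearest listed start. At ATG5 and SQSTM1 the summit lay before the nearest listed start but inside the annotated gene. Of the 26 strongest member peaks, 9 (34.6%) lay within 1000 bp of an end of another protein-coding gene, close to the 33.7% of all occupied genes.

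**Figure D3:**
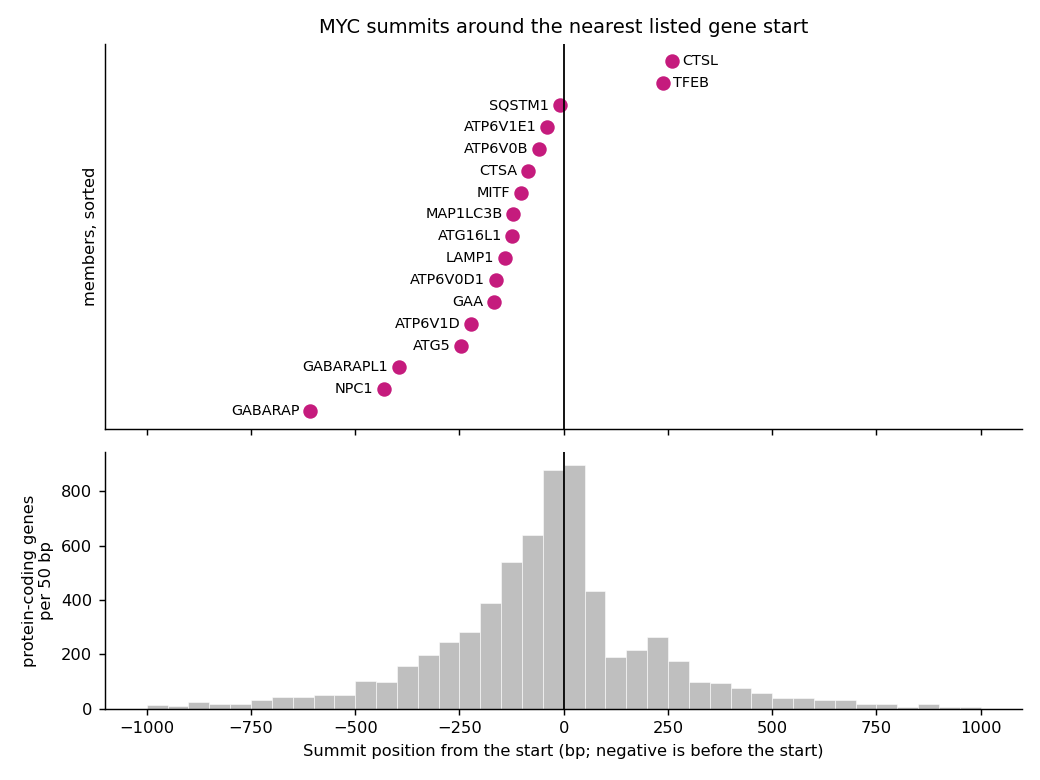
Position of the MYC summit from the nearest listed gene start (bp, negative is before the start) for the 17 members with a summit within 1000 bp (upper panel) and for all 6560 such protein-coding genes in bins of 50 bp (lower panel). Of the members, 15 lie left of the start.

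E-boxes were frequent in the members' promoters. The window held CACGTG in 8 of the 29 members with a listed start (27.6%), against 10.9% of the 15812 protein-coding genes with a window and 8.34% of all 22132 windows of those genes. With GT before it or AC after it, as in the CLEAR element, it stood in 7 of the 29 members (24.1%) and 4.07% of all genes. The complete palindrome was found in GAA and MCOLN1 (6.90% of members, 0.639% of all genes). CLEAR was itself described from promoters of lysosomal genes, so these shares describe the list and are no independent result. The 8 genes were LAMP1, MCOLN1, CTSA, CTSD, GAA, NEU1, ATP6V0B and ATP6V0D1. No autophagy member and no transcription factor member with a listed start was among them.

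LAMP1 had 6 copies of CACGTG, more than any other protein-coding gene with a window. The copies at 192, 176, 159 and 142 bp before the start were spaced by 16 or 17 bp, and those at 28 and 1 bp before it stood apart. The MYC summit fell 141 bp before the start, on the innermost of the 4 spaced copies. At ATP6V0B, with copies 57 and 39 bp before the start, the summit lay 5.5 bp from the middle of the nearer one. At CTSA, GAA and ATP6V0D1 the summit was 45.5, 94.5 and 106.5 bp from the middle of the nearest copy. In these 5 genes all copies lay inside the called peak. Each of these peaks covered the whole window searched, so any copy found had to lie inside it.

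Members with and without the E-box were both found among the occupied genes. A summit at the start was found in 5 of the 8 members with CACGTG (62.5%), or 5 of 7 without NEU1 (71.4%), and in 12 of the 21 members without it (57.1%). With the CLEAR-flanked form it was 5 of 7 members (71.4%), and 12 of 22 (54.5%) of those without that form. Among 97 other genes of the same pathways with a listed start, described below by role, the shares were 17 of 21 with CACGTG (81.0%) and 43 of 76 without it (56.6%). Over all protein-coding genes the shares were 57.6% of 1723 genes with CACGTG and 39.5% of 14089 genes without it. They were 66.9% of the 148 genes with 2 copies and 70.4% of the 27 with 3 or more. CTSD and MCOLN1 had flanked E-boxes and no summit at the start, and NEU1 lies in the stretch without summits. GABARAP and ATP6V1D, with folds of 20.98 and 14.7, had no CACGTG in the window. The GABARAP summit, 608 bp before the start, lay outside that window, so the bases at the summit were not searched. The same holds for NPC1, GABARAPL1, CTSL and TFEB, which are also counted as members without CACGTG. The median fold of peaks at the start was 9.06 in members with CACGTG and 7.26 in members without it, against 10.5 and 8.16 over all protein-coding genes.

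**Figure D4:**
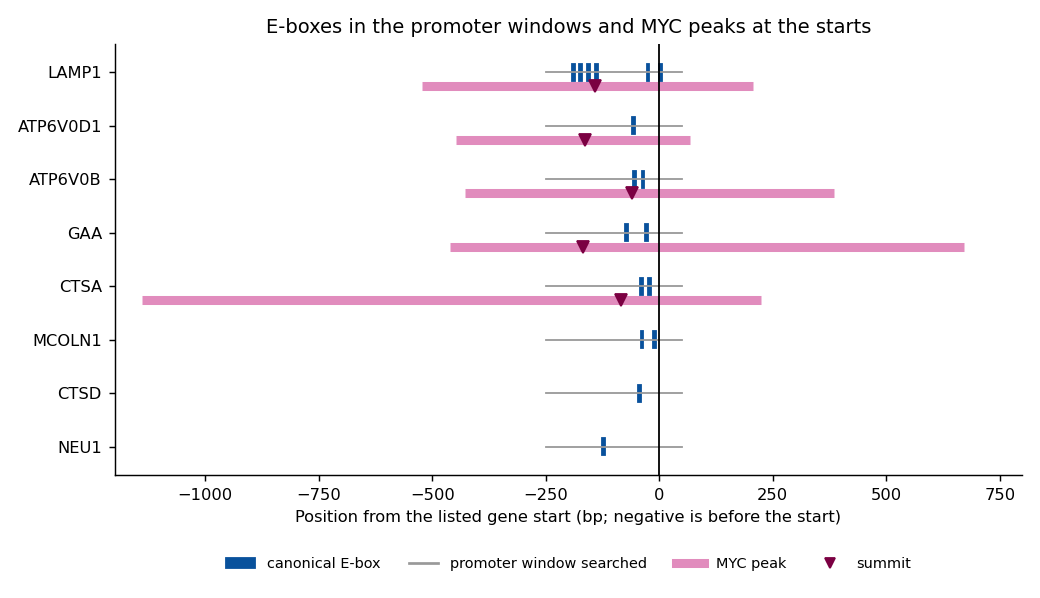
Canonical E-boxes (blue) in the promoter windows (grey lines) of the 8 members that hold any, with the MYC peaks at their starts (pink) and the summits (triangles), by distance from the listed start in bp. LAMP1 has 6 copies with the summit on the fourth from the left, and MCOLN1, CTSD and NEU1 have copies without a peak.

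G+C content of the windows was computed as a feature that the choice of genes did not use. The 17 members with a summit at the start had a median G+C content of 68.0% and the 12 without one 69.3%. Over all protein-coding genes these medians were 67.7% and 61.3%.

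Another 123 genes of the same pathways were counted by role. A summit lay in or within 5000 bp of 77 of them (62.6%), against 47.7% of all protein-coding genes. The counts by role have the same 47.7% as their background. Their strongest peaks had a median fold of 8.34. Beside 9 of the 10 V-ATPase members, other V-ATPase genes were occupied in 5 of 15 cases (33.3%). The unoccupied ones were TCIRG1, ATP6V0A4, ATP6V0D2, ATP6V0E2, ATP6V1B1, ATP6V1C2, ATP6V1F, ATP6V1G2, ATP6V1G3 and ATP6AP2. The occupied ones were led by ATP6V1E2, whose peak of 11.1 also lies at RHOQ, ATP6V0A1 (8.42) and ATP6V1G1 (9.77). ATP6V0A1 had no summit within 1000 bp of a listed start.

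Other hydrolase genes were occupied in 23 of 36 cases (63.9%), led by −log10 q by GALNS, with a fold of 24.3 in a peak at its neighbour APRT and 8.02 at its own start. CTSC, a protease gene (21.4), and GUSB, the β-glucuronidase gene (43.7), came next. Other membrane and transport genes reached 21 of 25 (84.0%), led by LAMTOR2 (30.7), CD63 (20.2) and LAMTOR5 (12.6). The LAMTOR2 peak also lies at UBQLN4, and those of CD63 and LAMTOR5 at CD63-AS1 and LAMTOR5-AS1. LAMTOR2 and LAMTOR5 belong to the Ragulator scaffold that brings mTORC1, a kinase complex that restrains TFEB, to the lysosome. All 5 of its LAMTOR genes had a summit, at folds down to 4.29 in LAMTOR4. Of 8 further genes that encode TFEC or regulators of TFEB, 6 had one, led by RRAGC (10.9), FLCN (7.38) and FNIP2 (9.32).

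Other autophagy genes were occupied in 22 of 39 cases (56.4%, beside 47.7% of all protein-coding genes), led by VMP1 (21.9), ATG14 (19.8) and ATG12 (14.7). The peaks of VMP1 and ATG12 also lie at their neighbours PTRH2 and AP3S1. Divided by step, a division made after the members' values were seen, 0 of the 5 members of initiation and membrane supply had a summit, against 13 of 17 other genes (76.5%). For conjugation and receptor genes it was all 7 members, against 7 of 15 other genes (46.7%). Of the genes of fusion with the lysosome, a step with no member, 2 of 7 had a summit (28.6%). The order of the steps by share thus differed between members and other genes. The absence at ULK1, BECN1, UVRAG, WIPI1 and ATG9A was not shared by most other genes of the step. ATG14, ATG13 (9.14), WIPI2 (8.48) and the ULK1 relative ULK2 (6.06) were among those with a summit. The ATG13 peak also lies at HARBI1. The 4 other genes of the step without a summit were PIK3C3, PIK3R4, NRBF2 and ATG2B.

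**Figure D5:**
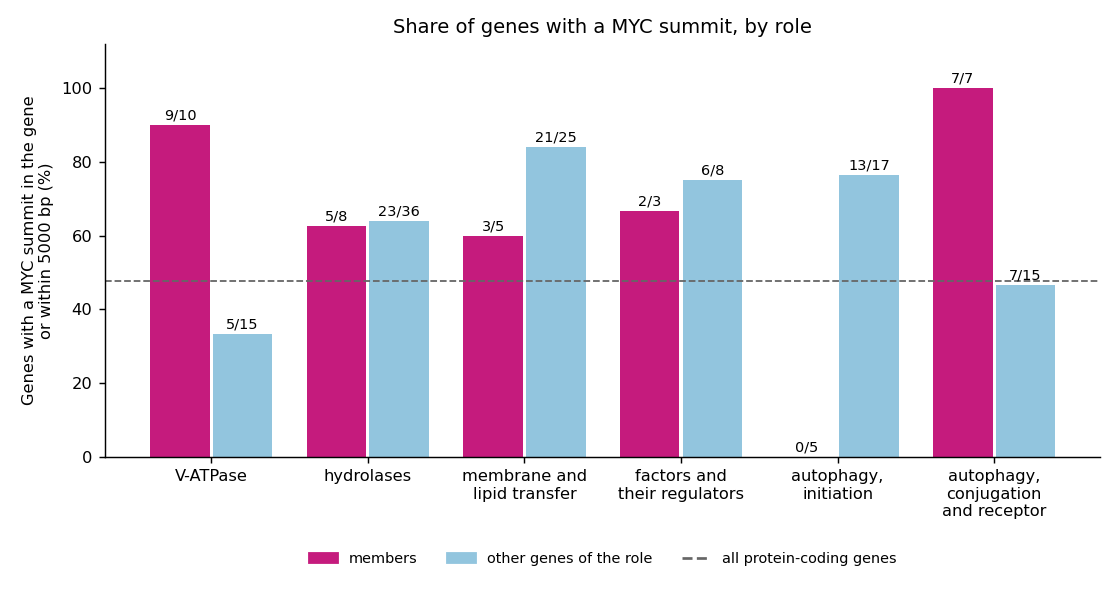
Percentage of genes with a MYC summit in the gene or within 5000 bp, for members (magenta) and other genes of the same role (blue), with counts above the bars. The dashed line is the share of all protein-coding genes, 47.7%; the autophagy steps differ in opposite directions between members and other genes.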

How the data were processed

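ChIP-Rx for MYC was done in U2OS cells (2 IP libraries, 1 input). Per the submitters' processing notes, the tools were MACS2, Bowtie2, cutadapt, Picard and SAMtools, and the genome builds hg38, mm10 and hg19. The sources used here do not state settings, how mouse reads were used, or whether IP libraries were pooled. The deposited list gives per peak, as MACS2 writes it, a fold ratio of IP over control, −log10 p-values and −log10 q-values, a score, and the summit. The fold and −log10 q were used as deposited.

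Gene spans, starts and promoter windows are RefSeq's (GRCh38.p14, 19974 protein-coding genes). A gene was occupied with a summit inside it or within 5000 bp, and at its start within 1000 bp of any listed start. Its strongest peak is that with the highest −log10 q. Motifs were searched on both strands, without masking overlaps. Exons, introns and UTRs were not used here. Assignment and motif search (Python 3.11.15, pandas 2.3.3, numpy 2.4.6, figures in matplotlib 3.10.9) were tested on simulated data.

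Members, lists and windows were chosen with earlier results of these data known. All members are named, other genes by the 3 highest −log10 q per role, and further names were chosen after their values were seen.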

Additional observations from a re-analysis of the deposited data

How the results depend on the processing

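Each of the 10 results had at least 1 setting that moved it. Of 58 recomputed values under other settings, 47 left a count within 1.5 times of that reported or a median unchanged to 3 digits, and 11 did not. Keeping the stronger 50% of peaks by −log10 q left 11 of the 26 members with a summit, 5 V-ATPase, 2 hydrolase, 1 membrane, 2 autophagy and 1 transcription factor member, 43 of the other 123 genes and 8 members at a start, with a median fold of 12.9. The members' share was then 28.9%, beside 27.7% of all protein-coding genes. The median fold was 7.47 with summits within 1000 bp of the gene. CANNTG, any E-box, stood in 26 of 29 members and 70.5% of genes. Within 10000 bp, 29 members had a summit, with ULK1, BECN1 and GLA added. The summit nearest the limit of 5000 bp inside it lay 4972 bp before the start of ATP6V0B, which also had one at its start. MCOLN1 counted through a single summit 1673 bp from the gene. The nearest outside was ULK1 at 6101 bp. No replicate could be left out, since the 1 list gives no values per library. No paired analysis was possible because the result comes from no test and the input has no replicate number.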
